A study of Mus musculus with 10 samples.

Results

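The Ebf family (early B-cell factors) was followed across 10 lines of mouse embryonic fibroblasts (MEFs), the connective tissue cells that grow out of a minced embryo. The 4 genes Ebf1, Ebf2, Ebf3 and Ebf4 were found by symbol and Ensembl ID among 53801 genes, and all 4 were among the 16227 genes with enough reads to be tested. The lines came from C57BL/6 embryos at day 13.5 with the head, liver and heart removed, and RNA of each line was sequenced once. The tested groups were 3 MIDEAS-/- lines, homozygous for the MIDEAS-del1 allele, and 2 DNTTIP1-/- lines, homozygous for DNTTIP1-del1. Their controls were 3 MIDEAS+/+ and 2 DNTTIP1+/+ lines, used only for the knockout of the same colony. Both alleles are small CRISPR-Cas9 deletions in exon 2 that create an early stop codon, present in every cell of the embryo, and neither line nor culture had any other treatment. MIDEAS and DNTTIP1 are subunits of MiDAC, a histone deacetylase complex built around HDAC1 or HDAC2.

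Ebf proteins bind DNA as dimers through a zinc-containing domain and recognise a palindrome with the core CCCNNGGG. Ebf1 commits lymphoid progenitors to the B cell lineage, where it works beside Pax5 and E proteins, and in mesenchyme Ebf1 and Ebf2 act early in fat cell formation. Ebf2 also marks brown fat precursors and acts in bone, Ebf3 is expressed in bone marrow stroma and in developing neurons, and Ebf4 is the least studied of the family. Zfp423 and Zfp521 are zinc finger proteins that bind Ebf factors and modify what they do.

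The libraries held 12339970 to 19761295 reads assigned to genes. Dnttip1 checked the DNTTIP1 labels, with 197 and 173 normalized counts (reads divided by the size factor of the library) in DNTTIP1-/- lines against 434 and 443 in DNTTIP1+/+ lines. Elmsan1, the gene of MIDEAS, differed by 0.03 on the log2 scale in the MIDEAS family and so checked nothing. Summed counts of 10 fibroblast markers were between 53805 and 70590 in every library, a sum that hides differences of single markers. Their median log2 difference in MIDEAS-/- lines was -0.06, yet 2 of the 10 were called higher there, against 3.36% of all genes tested. Dcn had 1964, 1511 and 1646 in MIDEAS-/- lines, against 647, 581 and 1008 in MIDEAS+/+ lines. Lum had 1781, 1123 and 1380 in MIDEAS-/- lines, against 490, 96.1 and 304 in MIDEAS+/+ lines. Both overlapped in the DNTTIP1 family. The B cell marker Ms4a1 had 0 reads among 145374851 over all libraries, which allows up to 3 reads. MIDEAS-/- replicate 1 stood apart from its replicates, with 9.38% of its reads in 10 genes against 5.14% to 6.50% elsewhere. Y-linked transcripts were high in MIDEAS+/+ replicate 1, DNTTIP1-/- replicate 1 and DNTTIP1+/+ replicate 1, while Xist, the RNA of the silenced X chromosome, was high in the other 7 libraries. A change in bulk RNA does not tell fewer cells of a type from less RNA per cell.

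By the GENCODE M21 annotation of GRCm38, Ebf1 (ENSMUSG00000057098) lies on the plus strand at chr11:44617317-45008091 and Ebf3 (ENSMUSG00000010476) on the minus strand at chr7:137193673-137314445. Ebf2 (ENSMUSG00000022053) is at chr14:67233292-67430918 and Ebf4 (ENSMUSG00000053552) at chr2:130295169-130370481, both on the plus strand. The values below are sums over their exons, 9756 bp for Ebf1, 6928 bp for Ebf2, 9227 bp for Ebf3 and 3236 bp for Ebf4. In Ebf3, 355 bp of exon are shared with the antisense gene Gm45278, and in Ebf2, 424 bp with the antisense gene Gm10860. The sources do not state a stranded count, so reads of the overlapping stretches cannot be told apart. Gm45278 averaged 38.8 normalized counts in MIDEAS-/- and 20.8 in MIDEAS+/+ lines, and 35.4 in DNTTIP1-/- and 12.2 in DNTTIP1+/+ lines, far under the counts of Ebf3.

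The promoters of Ebf1 and Ebf3 are printed because these were the members that passed a test. The windows come from RefSeq on GRCm38.p6, run 5′ to 3′ on the strand of the gene, and hold 250 bases before and 50 bases after an annotated start. Capitals mark CCCNNGGG, which reads the same on both strands. RefSeq gives 2 windows for Ebf1, at chr11:44617850-44618149 and chr11:44619978-44620277 on the plus strand, and 1 for Ebf3, at chr7:137314396-137314695 on the minus strand.
Ebf1 promoter, upstream start: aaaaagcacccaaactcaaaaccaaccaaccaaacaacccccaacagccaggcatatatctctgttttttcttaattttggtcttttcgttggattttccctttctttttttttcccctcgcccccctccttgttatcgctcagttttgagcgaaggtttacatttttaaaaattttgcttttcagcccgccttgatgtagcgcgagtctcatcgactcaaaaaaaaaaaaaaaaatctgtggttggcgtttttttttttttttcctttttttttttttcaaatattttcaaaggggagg
Ebf1 promoter, downstream start: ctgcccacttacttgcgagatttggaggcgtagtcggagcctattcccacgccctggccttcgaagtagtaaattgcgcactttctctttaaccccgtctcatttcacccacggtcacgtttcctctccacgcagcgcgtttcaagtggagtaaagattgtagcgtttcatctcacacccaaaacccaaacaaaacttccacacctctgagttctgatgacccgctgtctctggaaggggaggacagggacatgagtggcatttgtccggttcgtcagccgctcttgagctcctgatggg
Ebf3 promoter: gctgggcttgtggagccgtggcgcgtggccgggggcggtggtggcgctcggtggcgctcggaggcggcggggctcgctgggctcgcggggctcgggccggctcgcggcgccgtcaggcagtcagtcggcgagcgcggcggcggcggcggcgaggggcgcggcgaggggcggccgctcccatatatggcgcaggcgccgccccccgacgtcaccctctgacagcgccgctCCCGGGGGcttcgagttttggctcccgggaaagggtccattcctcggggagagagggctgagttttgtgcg
The Ebf3 window held 1 match, beginning 21 bases before the start, and the 2 Ebf1 windows and the Ebf4 window held 0. Of all 32851 promoter windows of this length, 13.7% held CCCNNGGG, and 0.904% held the longer TCCCNNGGGA, which no Ebf window had. The windows also differed in base composition, with 36.7% and 53.0% G and C in Ebf1, 77.0% in Ebf3 and 74.3% in Ebf4, against a median of 52.7% over all promoters. A match of letters is a description and not a bound site.

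Ebf1 and Ebf3 rose in MIDEAS-/- MEFs, and Ebf2 and Ebf4 did not pass the test. These 2 of 4 members stand beside 5.65% of all genes called in either direction and 3.36% called higher (limma, Benjamini-Hochberg adjusted p under 0.1 over all genes). In the DNTTIP1 family 0 of 4 passed, where limma called 0.0308% of all genes. Ebf3 was higher in both DNTTIP1-/- lines than in both DNTTIP1+/+ lines, as were 20.1% of all genes tested.

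Ebf3 had 1748, 1491 and 1230.4 normalized counts in MIDEAS-/- lines, against 762, 575 and 738.5 in MIDEAS+/+ lines. In the other family it had 1500.2 and 1334 in DNTTIP1-/- lines, against 762 and 716 in DNTTIP1+/+ lines. All 5 knockout libraries were above all 5 wild-type libraries, with the lowest knockout library at 1230.4 and the highest wild-type library at 762. Of all genes tested, 11.5% lay wholly above wild type in the MIDEAS family, 20.1% in the DNTTIP1 family and 5.09% in both, and Ebf3 was the 1 member of 4 that did so in both. The means were 1490 ± 259 in MIDEAS-/- and 692 ± 102 in MIDEAS+/+ lines (SD, n = 3 each), and 1417 ± 117 in DNTTIP1-/- and 739 ± 32.5 in DNTTIP1+/+ lines (SD, n = 2 each).

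On the log2(normalized count + 1) scale, Ebf3 rose by 1.10 (SE 0.15, 95% interval 0.76 to 1.45, limma adjusted p = 0.0107) in MIDEAS-/- lines, a 2.15-fold change. The estimate in DNTTIP1-/- lines was 0.94 (SE 0.19, interval 0.51 to 1.36), with a limma adjusted p of 0.209 and an unadjusted p of 0.000596. The 2 knockout effects differed by 0.17 (interval -0.38 to 0.71, adjusted p = 0.990). Their mean was 1.02 (SE 0.12, adjusted p = 0.0049), in a test that called 6.23% of all genes. The MIDEAS call held without any 1 of the 10 libraries, with adjusted p from 0.0130 to 0.0470. It held at 0.98 without MIDEAS-/- replicate 1 and at 1.18 without MIDEAS+/+ replicate 1, the set in which every library of the MIDEAS family had high Xist. In DNTTIP1-/- lines the call depended on the test. DESeq2 gave an adjusted p of 0.00376, where it called 206 genes against 5 by limma, and edgeR gave 0.255. With all libraries kept, Ebf3 stayed uncalled in 10 of 13 alternative settings.

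Ebf1, the gene needed for B cell commitment, had the larger estimate of both in MIDEAS-/- lines. It had 2537, 1789 and 1621 normalized counts in MIDEAS-/- lines, against 685, 580.4 and 850.4 in MIDEAS+/+ lines. The lowest MIDEAS-/- library was 1.91 times the highest MIDEAS+/+ library, and the 9 ratios between lines ran up to 4.37. In DNTTIP1-/- lines the counts were 1885 and 949, against 1223 and 575 in DNTTIP1+/+ lines, so that these groups overlapped. The DNTTIP1-/- line was at 1.54 times the DNTTIP1+/+ line among the Y-bearing replicates 1. Among the Xist-bearing replicates 2 it was at 1.65 times. Across numbers the ratios were 3.28 (DNTTIP1-/- replicate 1 over DNTTIP1+/+ replicate 2) and 0.776 (DNTTIP1-/- replicate 2 over DNTTIP1+/+ replicate 1). The labels do not state that same-numbered lines are pairs. In both DNTTIP1 groups the Y-bearing line had more Ebf1 than the other. In MIDEAS+/+ lines the Y-bearing replicate 1, at 685, lay between the others, at 580.4 and 850.4. The part of these differences in the result was not tested.

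Ebf1 rose by 1.48 (SE 0.32, interval 0.76 to 2.20, limma adjusted p = 0.0429) in MIDEAS-/- lines, a 2.79-fold change. In DNTTIP1-/- lines it differed by 0.67 (interval -0.21 to 1.56, adjusted p = 0.863). The difference of the 2 effects was 0.81 (interval -0.34 to 1.95, adjusted p = 0.990), so the family in which Ebf1 passed the test was not shown to differ from the other. No gene was called in that test (0.0% of all genes, with 453 at an unadjusted p under 0.05 by limma and 12 called by DESeq2). The mean of both effects was 1.08 (adjusted p = 0.0509).

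The Ebf1 call was lost on leaving out MIDEAS-/- replicate 1 (1.29, adjusted p = 0.107) or 2 (1.54, 0.115), and also MIDEAS+/+ replicate 1 (1.47, 0.102) or 2 (1.35, 0.182), and in a fit with neither the mean trend nor the robust option (1.48, 0.101). That of the mean effect was lost without MIDEAS-/- replicate 2 (adjusted p = 0.103), MIDEAS+/+ replicate 2 (0.115), DNTTIP1-/- replicate 1 (0.187) and DNTTIP1+/+ replicate 2 (0.180).

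**Figure D1:**
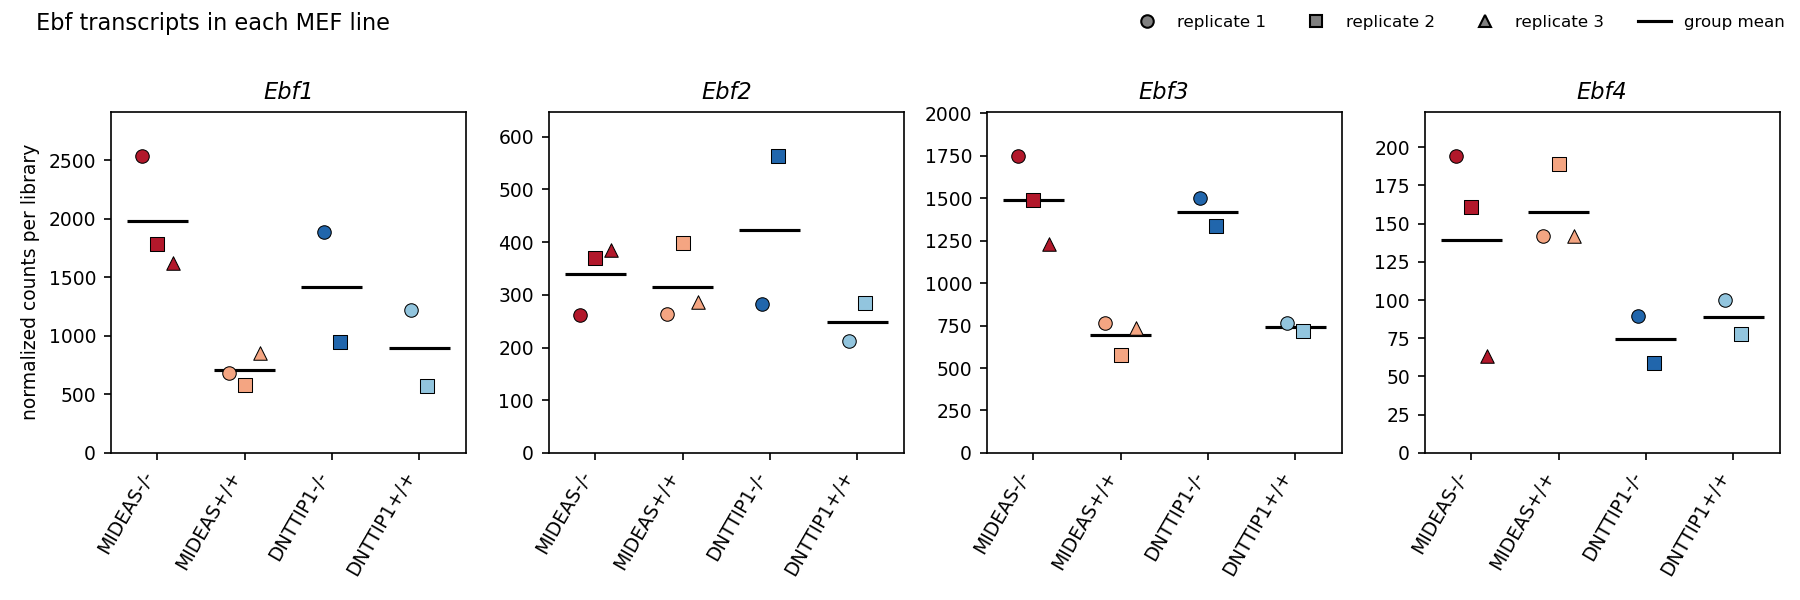
Normalized counts of the 4 Ebf genes in each library, from 0 on a linear axis of its own per gene, with groups along the x axis, points for libraries (shape gives the replicate number) and bars for group means. Ebf3 lies between 1230.4 and 1748 in the 5 knockout libraries and between 575 and 762 in the 5 wild-type libraries, while Ebf1 overlaps in the DNTTIP1 family and Ebf2 and Ebf4 overlap in both.

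Ebf2, the member tied to brown fat precursors and bone, gave no difference that passed the test. It had 261, 369 and 386 normalized counts in MIDEAS-/- lines, against 263, 397.5 and 286 in MIDEAS+/+ lines, and 282 and 563 in DNTTIP1-/- lines, against 212 and 285 in DNTTIP1+/+ lines. The groups overlapped in both families, and DNTTIP1-/- replicate 2 was the highest library of all. The log2 differences were 0.10 (interval -0.53 to 0.74, limma adjusted p = 0.900) for MIDEAS-/- and 0.70 (interval -0.08 to 1.47, adjusted p = 0.809) for DNTTIP1-/- lines. The DNTTIP1-/- value was 0.20 without DNTTIP1-/- replicate 2 and 1.19 without DNTTIP1-/- replicate 1. A doubling in MIDEAS-/- lines was outside the interval of Ebf2, and in DNTTIP1-/- lines it was inside.

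Ebf4 was the least abundant member by count. It had 194, 161 and 63.3 normalized counts in MIDEAS-/- lines, against 141.5, 189 and 142 in MIDEAS+/+ lines. In DNTTIP1-/- lines it had 89.6 and 59.1, against 100.2 and 78.0 in DNTTIP1+/+ lines. MIDEAS-/- replicate 3 lay far under the other lines of its group, and the groups overlapped in both families. The log2 differences were -0.31 (interval -1.20 to 0.58, limma adjusted p = 0.773) and -0.28 (interval -1.36 to 0.81, adjusted p = 0.967). Both DNTTIP1 groups were lower than the MIDEAS groups in mean, and between the wild types the difference was -0.81 (DNTTIP1+/+ minus MIDEAS+/+, interval -1.80 to 0.18, adjusted p = 0.535). For Ebf1, Ebf2 and Ebf3 the same wild-type difference was 0.27, -0.34 and 0.11. By limma 0 of 4 members passed there, in a comparison that called 0.0% of all genes, with 1731 at an unadjusted p under 0.05 and 267 called by DESeq2.

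**Figure D2:**
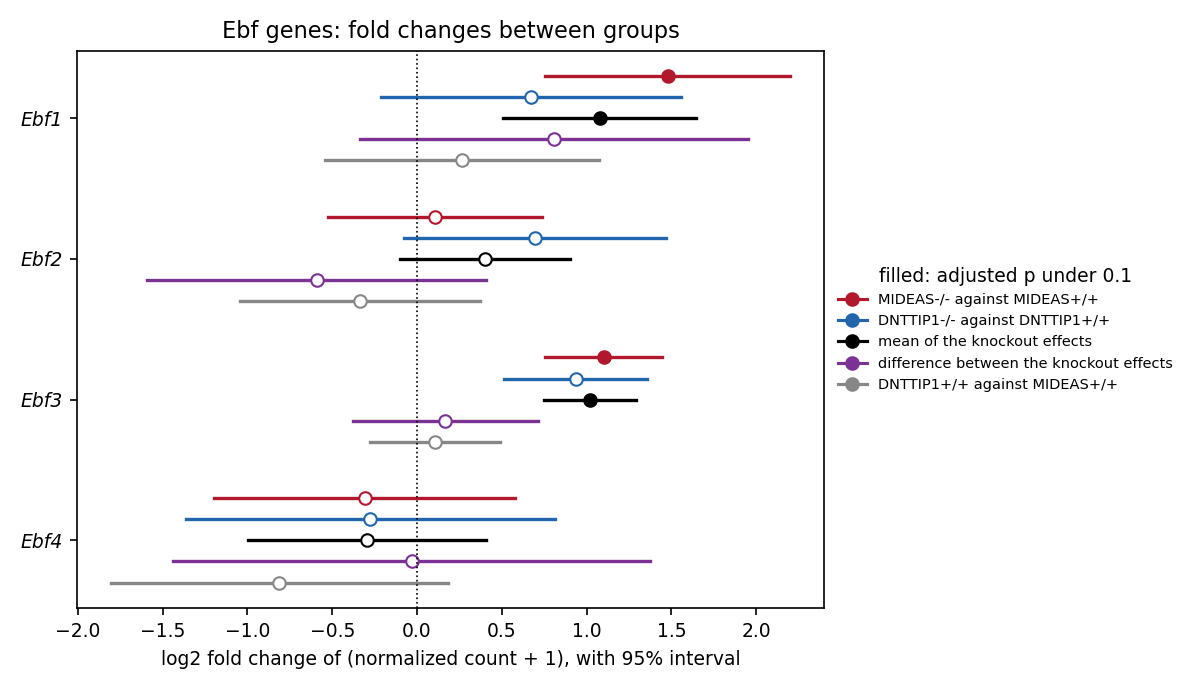
Log2 differences of normalized count + 1 (x axis) for each Ebf gene (rows), with 95% intervals as lines, for both knockouts, the mean and the difference of the knockout effects and the wild types. Filled points passed an adjusted p of 0.1, which Ebf1 (1.48 and 1.08) and Ebf3 (1.10 and 1.02) did for MIDEAS-/- lines and for the mean.

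Levels of the 4 genes can be compared per exon length. In reads per kilobase of exon, scaled to the depth of the library (RPKM), Ebf1 averaged 14.8 ± 3.51 in MIDEAS-/- and 5.20 ± 1.07 in MIDEAS+/+ lines (SD, n = 3 each). Ebf3 averaged 11.8 in MIDEAS-/- and 5.39 in MIDEAS+/+ lines, and Ebf2 3.57 in MIDEAS-/- and 3.26 in MIDEAS+/+ lines. Ebf4 averaged 3.16 in MIDEAS-/- and 3.48 in MIDEAS+/+ lines. In the DNTTIP1 family, Ebf1 averaged 10.3 in DNTTIP1-/- and 6.67 in DNTTIP1+/+ lines, and Ebf3 10.9 in DNTTIP1-/- and 5.78 in DNTTIP1+/+ lines. Ebf2 averaged 4.33 in DNTTIP1-/- and 2.58 in DNTTIP1+/+ lines, and Ebf4 1.63 in DNTTIP1-/- and 1.99 in DNTTIP1+/+ lines. Ebf1 and Ebf3 were thus the main members by mean in every group. In MIDEAS+/+ replicate 2, however, Ebf1, Ebf2, Ebf3 and Ebf4 were nearly equal, at 4.17, 4.02, 4.37 and 4.09. Ebf4, by length, was close to Ebf2 in the MIDEAS family.

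The 4 genes summed to an RPKM of 33.3 ± 6.37 in MIDEAS-/- and 17.3 ± 0.836 in MIDEAS+/+ lines (SD, n = 3 each), and to 27.2 ± 4.15 in DNTTIP1-/- and 17.0 ± 3.65 in DNTTIP1+/+ lines (SD, n = 2 each). The sum was higher in every knockout library, at 24.2 or more, than in every wild-type library, at 19.6 or less. In the MIDEAS family the shares of the members differed as well. Ebf1 took 44.3% ± 3.30 in MIDEAS-/- and 29.8% ± 4.76 in MIDEAS+/+ lines, and Ebf4 9.09% ± 3.36 in MIDEAS-/- and 20.2% ± 3.86 in MIDEAS+/+ lines. In the DNTTIP1 family the share of Ebf1 was 37.0% in DNTTIP1-/- and 37.9% in DNTTIP1+/+ lines. That of Ebf4 was 5.94% ± 0.838 in DNTTIP1-/- and 11.7% ± 0.324 in DNTTIP1+/+ lines. A share also moves with the other members, and the counts of Ebf4 itself overlapped in both families. These sums and shares are a description of the members and were not tested.

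**Figure D3:**
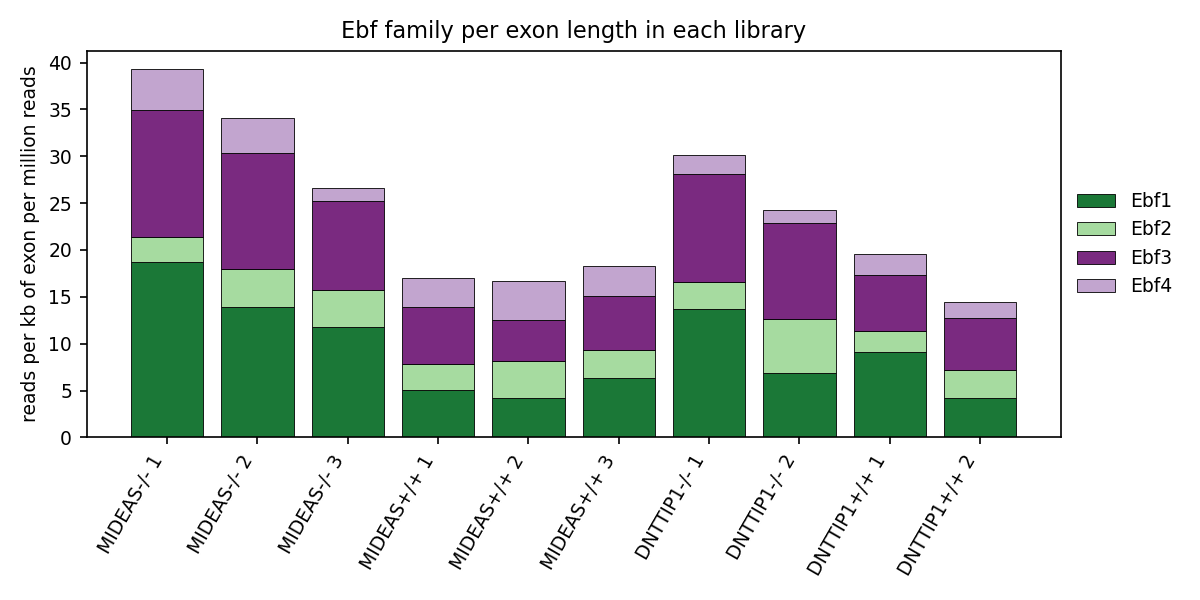
RPKM (reads per kilobase of exon, scaled to library depth) of the 4 Ebf genes, stacked, in each library along the x axis. The stacks reach 24.2 to 39.3 in the knockout libraries and 14.4 to 19.6 in the wild-type libraries, and Ebf1 and Ebf3 make up most of each.

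Within groups, Ebf2 varied against the other members. After group means were taken off, Ebf1 and Ebf2 deviated in opposite directions in 9 of 10 libraries, MIDEAS+/+ replicate 1 being the exception, with a Pearson r of -0.88 over the 10 deviations. Ebf2 had an r of -0.78 with Ebf3 and -0.45 with Ebf4. Between Ebf1 and Ebf3, Ebf1 and Ebf4, and Ebf3 and Ebf4 it was 0.65, 0.51 and 0.56. In MIDEAS-/- lines, for example, replicate 1 had the most Ebf1 and Ebf3 and the least Ebf2. Over the 10 libraries with group differences left in, r was 0.88 for Ebf1 and Ebf3, -0.12 for Ebf1 and Ebf2 and 0.21 for Ebf2 and Ebf3. These points share libraries and size factors, and within groups of 2 the deviations mirror each other, so the values are given without a p.

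**Figure D4:**
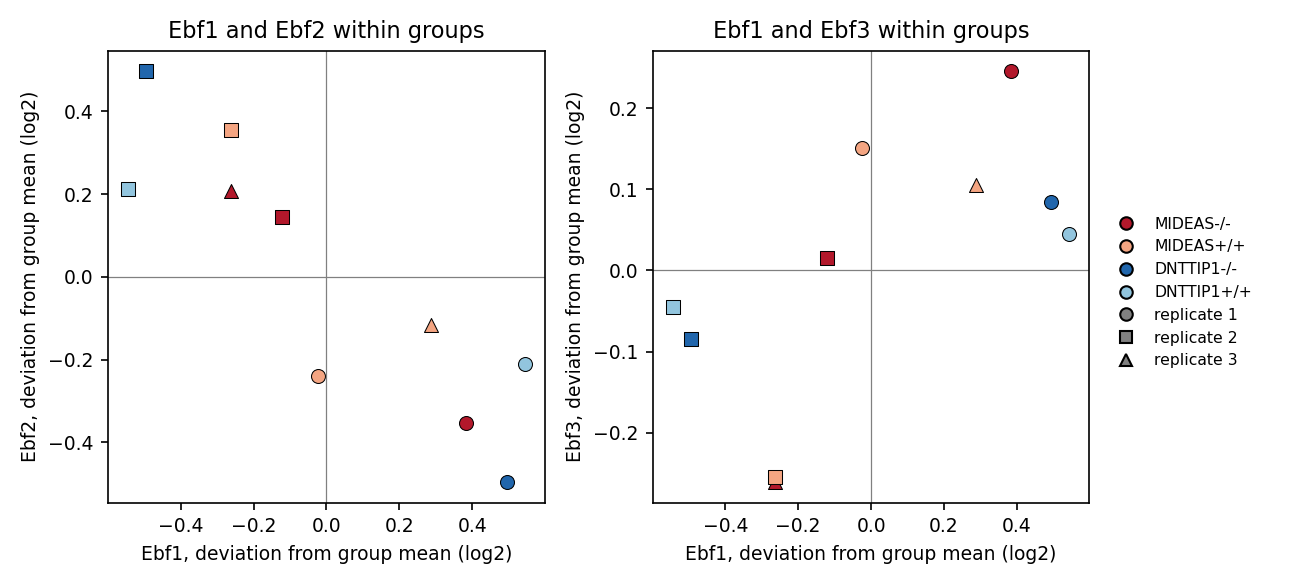
Deviation of each library from its group mean (log2) for Ebf1 (x axis) against Ebf2 (left panel) and Ebf3 (right panel), with colour for the group and shape for the replicate number. Ebf1 and Ebf2 deviate in opposite directions in 9 of 10 libraries (r = -0.88), and Ebf1 and Ebf3 in the same direction in 8 of 10 (r = 0.65).

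Among 14 cofactors and partners of Ebf proteins, 3 rose in MIDEAS-/- lines and 0 fell, where 3.36% of all genes were called higher. In DNTTIP1-/- lines 0 passed, where 0.0308% of all genes did. The medians were 0.11 and 0.27 on the log2 scale against -0.02 and 0.0006 over all genes. Zfp423, which binds Ebf1 and is itself needed for fat cell precursors, had 347, 444 and 331 normalized counts in MIDEAS-/- lines, against 82.5, 74.6 and 125 in MIDEAS+/+ lines. It had 378 in each DNTTIP1-/- line, against 160.3 and 133 in DNTTIP1+/+ lines. All knockout libraries were thus above the wild types of both families, as in 5.09% of all genes tested. Zfp423 rose by 2.00 (SE 0.23, limma adjusted p = 0.0054) in MIDEAS-/- lines, a call kept without any 1 library (adjusted p up to 0.0314), and differed by 1.36 (adjusted p = 0.215) in DNTTIP1-/- lines. Its relative Zfp521 differed by 0.77 (adjusted p = 0.193) in MIDEAS-/- lines.

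Id2 and Id4, which tie up E proteins and so keep them off DNA, rose in MIDEAS-/- lines as well. Id4 averaged 714 in MIDEAS-/- and 310 in MIDEAS+/+ lines, a rise of 1.28 (limma adjusted p = 0.0346) that was lost without MIDEAS-/- replicate 2 or MIDEAS+/+ replicate 2 (up to 0.133). Id2 rose by 0.91 (adjusted p = 0.0666), lost without MIDEAS+/+ replicate 2 or any 1 MIDEAS-/- line (up to 0.242). Id1 and Id3 differed by 0.11 and 0.10, and the E protein genes Tcf3, Tcf4 and Tcf12 by 0.14, 0.21 and 0.01, none passing the test. Id4 shares exon stretches with genes on the other strand.

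Of 11 tested genes of the fat cell programme downstream of Ebf factors, 2 rose in MIDEAS-/- lines, where 3.36% of all genes did, and 0 fell. In DNTTIP1-/- lines 0 passed, and the medians were 0.42 in both knockouts. Lpl, the lipase that frees fatty acids from circulating fat, had 1824, 885 and 1068 normalized counts in MIDEAS-/- lines, against 291, 347 and 243 in MIDEAS+/+ lines. It rose by 2.04 (limma adjusted p = 0.0167). Slc2a4, the insulin-responsive glucose transporter, rose by 1.70 (adjusted p = 0.0233) with 173, 115 and 128.5 in MIDEAS-/- lines, against 29.0, 55.2 and 44.6 in MIDEAS+/+ lines. Both calls were kept without any 1 library. Cebpa, which drives late fat cell genes, passed only for the mean of both knockouts (1.26, adjusted p = 0.0437), and not without MIDEAS-/- replicate 2, DNTTIP1-/- replicate 1 or DNTTIP1+/+ replicate 2 (up to 0.171). Pparg, the central regulator of the programme, differed by -0.15 (adjusted p = 0.889) in MIDEAS-/- lines.

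Several genes of mature fat cells were near 0. Adipoq, Plin1, Cfd, Ucp1 and Cidea were under the level tested, and Cidec had no reads. Fabp4, a fatty acid carrier, averaged 73.7 in MIDEAS-/- and 144 in MIDEAS+/+ lines without passing the test. The summed counts of 6 fat cell markers, of which Lpl is 1, were 938 to 1926 in MIDEAS-/- and 347 to 506 in MIDEAS+/+ lines, and 1142 to 1389 in DNTTIP1-/- and 497 to 1194 in DNTTIP1+/+ lines. Those of 7 bone and cartilage markers were 4550 to 5748 in MIDEAS-/- and 3181 to 4541 in MIDEAS+/+ lines, and 7728 to 8874 in DNTTIP1-/- and 3936 to 6504 in DNTTIP1+/+ lines, with no marker at 0 throughout. The bone and cartilage sum was thus higher in knockout than in wild-type lines of both families. Of single genes tested, 11.5% lay wholly above wild type in the MIDEAS family, 20.1% in the DNTTIP1 family and 5.09% in both. In the MIDEAS family the ranges lay close, at 4550 against 4541. Most of this sum was Col2a1, with 3574, 4621 and 3836 in MIDEAS-/- lines, against 2208, 2723 and 3426 in MIDEAS+/+ lines. Col2a1 had 5687 and 7244 in DNTTIP1-/- lines, against 2694 and 5023 in DNTTIP1+/+ lines. In MIDEAS-/- lines Col2a1 did not pass with any 1 library left out (limma adjusted p from 0.163 to 0.612). Of the 6 tested bone and cartilage markers, 2 were called higher in MIDEAS-/- lines, where 3.36% of all genes were. In DNTTIP1-/- lines 0 of the 6 passed. The fat cell sum was higher in MIDEAS-/- than in MIDEAS+/+ lines and was mostly Lpl, while the mean of Fabp4 went the other way. The part of either sum in the Ebf values was not tested.

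Of 13 tested marrow stroma and bone genes tied to Ebf factors, 2 rose and 1 fell in MIDEAS-/- lines. Of all genes, 5.65% were called there in either direction. In DNTTIP1-/- lines 0 passed, and the medians were 0.27 in MIDEAS-/- and 0.42 in DNTTIP1-/- lines. Tnfrsf11b, the decoy receptor osteoprotegerin and a target of Ebf2 in osteoblasts, averaged 334 in MIDEAS-/- and 797.5 in MIDEAS+/+ lines and fell by 1.24 (limma adjusted p = 0.0289). That call was lost without MIDEAS-/- replicate 2 or MIDEAS+/+ replicate 2 (up to 0.122). In DNTTIP1-/- lines Tnfrsf11b differed by -0.15 (adjusted p = 0.970). Kitl, the stem cell factor that marrow stroma offers to blood progenitors, rose by 1.40 (adjusted p = 0.0497) but not on leaving out replicate 1 or 2 of either group (up to 0.188). Alpl, the alkaline phosphatase of bone, rose by 2.91 (adjusted p = 0.0703) at 21.8 to 23.7 counts in MIDEAS-/- and 0 to 9.39 in MIDEAS+/+ lines, and not without any 1 MIDEAS-/- line or without MIDEAS+/+ replicate 1 or 2 (up to 0.216). Cxcl12, the stromal chemokine, differed by 0.38 (adjusted p = 0.312).

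**Figure D5:**
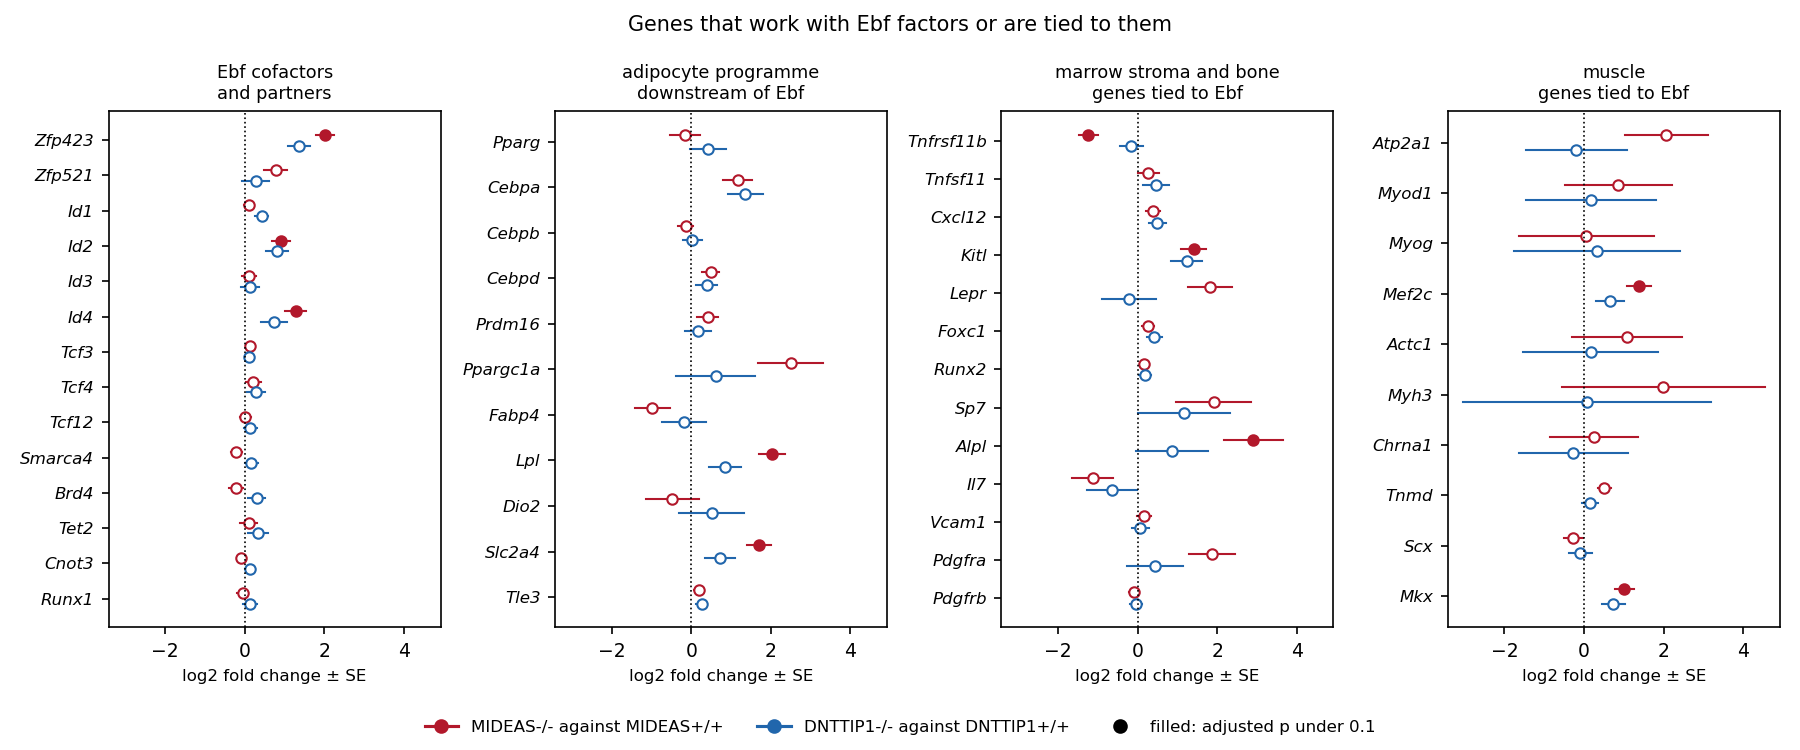
Log2 differences ± SE (x axis) of the tested members of 4 gene lists around the Ebf factors (panels, 1 gene per row) in MIDEAS-/- (red) and DNTTIP1-/- (blue) lines, each against its own wild type. Filled points passed an adjusted p of 0.1, all of them in the MIDEAS family, with Zfp423 at 2.00 and Tnfrsf11b at -1.24.

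Of 10 tested muscle and tendon genes tied to Ebf factors, 2 rose in MIDEAS-/- lines (median 0.94), where 3.36% of all genes were called higher. In DNTTIP1-/- lines 0 passed (median 0.15). Mef2c, a muscle transcription factor, rose by 1.38 (limma adjusted p = 0.0379), lost on leaving out replicate 2 or 3 of MIDEAS-/- or replicate 2 of MIDEAS+/+ (up to 0.157). Mkx, a tendon regulator, rose by 1.01 (adjusted p = 0.0540), lost on leaving out replicate 2 or 3 of MIDEAS-/- or replicate 1 or 2 of MIDEAS+/+ (up to 0.209). Genes of formed muscle such as Myog, Actc1 and Myh3 varied widely between lines of 1 group and did not pass the test.

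The B cell genes that Ebf1 binds were almost absent from all groups. Of 16 such genes, 15 were under the level tested. Cd79a had the most reads of these 15 over all 10 libraries, at 78, followed by Blnk with 62 and Vpreb1 with 50. Pax5 had 6 reads, Cd79b 4 and Rag1 2, and Ms4a1 and Pou2af1 had 0, which allows up to 3 each. Foxo1, expressed in many cell types, averaged 508 and differed by -0.11 in MIDEAS-/- and 0.06 in DNTTIP1-/- lines. The 8 B cell markers summed to 17.3 to 26.8 normalized counts in MIDEAS-/- and 10.95 to 26.6 in MIDEAS+/+ lines.

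The genes beside the Ebf loci were examined as well. Of the 16 nearest protein-coding genes, 15 were tested, 1 passed in MIDEAS-/- lines, a share near the 5.65% of all genes, and 0 in DNTTIP1-/- lines. That 1 was Cpxm1, a carboxypeptidase-like gene that lies 20294 bp from Ebf4, with a rise of 1.14 (limma adjusted p = 0.0565) that was lost without any 1 MIDEAS-/- line or without MIDEAS+/+ replicate 2 or 3 (up to 0.223). The neighbours of Ebf1, Rnf145 and Clint1, differed by -0.09 each in MIDEAS-/- lines. Those of Ebf3, Mgmt and 9430038I01Rik, differed by -0.14 and 0.33 without passing the test.

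The gene whose pattern over the 10 libraries was most like that of Ebf3 was Ntrk2, the receptor of brain-derived neurotrophic factor, with a Pearson r of 0.986 of log2 values and 0.85 after group means were taken off. Ntrk2 had 688, 452 and 316 normalized counts in MIDEAS-/- lines, against 26.7, 17.4 and 50.8 in MIDEAS+/+ lines. It had 512 and 329 in DNTTIP1-/- lines, against 55.9 and 40.9 in DNTTIP1+/+ lines, so every knockout library was well above every wild type. It rose by 3.96 (limma adjusted p = 0.0040) in MIDEAS-/- lines, kept without any 1 library, and differed by 3.07 (adjusted p = 0.143) in DNTTIP1-/- lines. Ntrk2 was picked for its likeness to Ebf3, so its separation of the groups and its call are no separate result. Paqr4, Lgi3, Il27ra and Rtn4rl1 followed, with r from 0.972 to 0.978.

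The nearest to Ebf1 was Slc16a9, known in human as a carnitine transporter, with an r of 0.978, at 89.8, 66.5 and 53.4 normalized counts in MIDEAS-/- lines, against 13.4, 12.3 and 21.1 in MIDEAS+/+ lines. Like Ebf1, to which it was matched, it was higher in the Y-bearing line of both DNTTIP1 groups. It had 81.4 and 23.0 in DNTTIP1-/- lines, against 41.1 and 17.5 in DNTTIP1+/+ lines. In MIDEAS+/+ lines the Y-bearing replicate 1, at 13.4, lay between the others. Slc16a9 rose by 2.10 in MIDEAS-/- lines (limma adjusted p = 0.0641), lost without any 1 MIDEAS-/- line or without MIDEAS+/+ replicate 1 or 2 (up to 0.228). Crot, Epha5, Asap3 and Irak3 followed with r from 0.967 to 0.970. These genes were picked as the highest of 16227 correlations over libraries that share the group differences. Both r and their knockout differences are thus a description, since the choice in part carries those differences over.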

How the data were processed

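RNA of 10 MEF lines was sequenced, 1 library each. Adaptors were removed by the authors with Trim Galore 0.4.5 and cutadapt 1.11, and reads were mapped to mm10 with STAR 2.5.2b. They then took out duplicates with Picard, sorted with SAMtools 1.3.2 and analysed counts with DESeq2 (versions credited to the submitters' processing notes). Taking out duplicates lowers high counts more than low ones. What counted reads per gene is not given in the sources used here. Each deposited value, a signal, is the read number of a gene over the size factor of its library, called a normalized count. All values (100.0%, tolerance 0.01) were whole multiples of 1 read. Deposited tables of the authors' own comparisons hold their fold changes and p-values and were not used.

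limma 3.58.1 (R 4.3.3, trend and robust) was run on log2(normalized count + 1) for 16227 genes with a mean of at least 10, with 4 groups in 1 fit. Calls had a Benjamini-Hochberg adjusted p under 0.1. Contrasts were each knockout against its own wild type, their mean, their difference, and DNTTIP1+/+ against MIDEAS+/+. The fits were also run on simulated counts, drawn independently per library with a spread estimated from these same libraries. Such counts hold no sex or litter structure, so these runs cannot check the calls for it. Alternatives were other pseudocounts, filters, scalings and thresholds, separate fits, all 5 wild types as controls, a replicate block, no trend with no robust option, edgeR 4.0.16 and DESeq2 1.42.0 on recovered reads, and each library left out. Counts per library bound precision by counting error only. Lines were numbered in the labels, which do not say whether lines came from separate litters, so p-values measure the spread between these lines. Gene names matched 53638 of 53801 IDs.

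The members and all gene lists were chosen with earlier results of these data known. Genes named are the Ebf genes, list members called in a contrast with some of those not called, neighbours, overlapping genes and the 5 genes most correlated with each member. Promoters matched 3 of 4 members. Exons of Id4, Cebpa, Cdkn1c, Foxf2, Slc16a9, Crot, Irak3, Paqr4, Il27ra and Dnttip1 overlap annotated genes on the other strand, and those of Crot, Mkx and Repin1 genes on the same strand, so their reads cannot be fully told apart. Results of some genes in the lists are not reported here.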

Additional observations from a re-analysis of the deposited data

How the results depend on the processing

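Ebf genes called in MIDEAS-/- lines numbered 2, and 1 with neither the mean trend nor the robust option (Ebf1 lost, adjusted p = 0.101). Leaving out 1 library gave 1 to 2. In DNTTIP1-/- lines 0 were called, and 1 with all 5 wild types as controls (Ebf3, adjusted p = 0.0332), with the replicate block (0.0886) and with DESeq2 (0.00376). Leaving out 1 library gave 0 throughout. For the mean of both knockouts 2 were called, and 1 without a filter, with neither trend nor robust option and at a threshold of 0.05, with 1 to 2 when 1 library was left out. The cause of these changes was not tested. The direction of Ebf1 and Ebf3 held in both knockouts under every alternative run. Leaving out 1 library gave 1.29 to 1.62 for Ebf1 and 0.97 to 1.23 for Ebf3 in MIDEAS-/- lines, and 0.13 to 1.22 and 0.85 to 1.02 in DNTTIP1-/- lines.

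Ebf2 in DNTTIP1-/- lines stayed positive, at 0.20 to 1.19 with 1 library left out and 0.49 to 0.76 under the other alternatives. The signs of Ebf4, and of Ebf2 in MIDEAS-/- lines, were not stable. Ebf4 in MIDEAS-/- lines was at 0.016 with all 5 wild types, and its difference between knockouts was 0.017 with total-read scaling, 0.78 with all 5 wild types, 0.11 by edgeR and 0.10 by DESeq2. Leaving out 1 library gave -0.015 to 0.28 for Ebf2 and -0.62 to 0.18 for Ebf4 in MIDEAS-/- lines, -0.57 to 0.02 for Ebf4 in DNTTIP1-/- lines and -0.34 to 0.46 for its difference.

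Over all genes, limma called 917 in MIDEAS-/- and 5 in DNTTIP1-/- lines. The replicate block gave 2025 and 82, DESeq2 1674 and 206, neither trend nor robust option 589 and 7, no filter 835 and 17, and all 5 wild types 851 and 126. Leaving out 1 library gave 264 to 1014 and 0 to 4. Same-numbered lines of the MIDEAS family deviated with r of 0.21, -0.11 and -0.05. Those of the DNTTIP1 family deviated with 0.66, a single value, because deviations in groups of 2 mirror each other. These values do not settle whether the numbers pair the lines. The labels do not state pairs, so the main fit did not pair the lines, and the replicate block did. With 2 DNTTIP1-/- lines, effects as large as those of Ebf1 and Ebf2 in this family had intervals that include 0.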

Other observations

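Among 29 tested transcription factors of kidney and mesenchyme, 2 rose and 0 fell in MIDEAS-/- lines, where 3.36% of all genes were called higher, and 0 passed in DNTTIP1-/- lines. The medians were 0.24 in MIDEAS-/- and 0.22 in DNTTIP1-/- lines. Foxp2, a forkhead factor, had 745.5, 731 and 634 normalized counts in MIDEAS-/- lines, against 243, 252 and 285.5 in MIDEAS+/+ lines, and rose by 1.43 (limma adjusted p = 0.0245, kept without any 1 library). Foxf2 passed only for the mean of both knockouts, at -0.94 (adjusted p = 0.0847), kept only without MIDEAS-/- replicate 1 or 3 (up to 0.243 otherwise). Prrx1 and Twist1, general mesenchyme factors, differed by 0.25 and 0.16 in MIDEAS-/- lines without passing.

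Of 9 growth arrest genes tied to Ebf3, 1 rose in MIDEAS-/- lines, where 3.36% of all genes were called higher. That 1 was Cdkn1c, a cyclin-dependent kinase inhibitor, with a rise of 0.78 (limma adjusted p = 0.0543). The call was lost on leaving out replicate 1 or 3 of MIDEAS-/- or replicate 1 or 2 of MIDEAS+/+ (up to 0.186). Cdkn1a and Cdkn2a differed by -0.17 and -0.31. Of 9 tested olfactory and neuronal genes, 0 passed in either knockout, and Stmn2, a neuronal tubulin regulator, was lower for the mean of both (-1.39, adjusted p = 0.0783), kept only without replicate 1 of MIDEAS-/-, MIDEAS+/+ or DNTTIP1-/- (up to 0.211 otherwise). Most like Ebf2 over the 10 libraries was Fry (r = 0.903) and most like Ebf4 was Repin1 (r = 0.963), neither of which passed the test in either knockout.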
